A study of Mus musculus with 6 samples.

Results

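Colonic P3/P4 MΦs of Il10rb-/- mice were compared with those of Il10rb+/- mice at 12 weeks of age, when colitis is established in this model. Both mice were untreated and on the 129SvEv background, the mutant allele was Il10rb tm1Agt, and the controls used by the study were co-housed heterozygous littermates, so both groups carried at least 1 copy of the allele. P3/P4 MΦs are the Ly6C-, MHCII+ end of the path from monocyte to resident macrophage, and they were sorted from lamina propria leukocytes as CD45+ CD11b+ cells with intermediate CD11c and with CD64, leaving out CD103+ cells. The comparison rests on 2 of the 6 RNA-seq libraries of the study, 1 per genotype from 1 mouse each. The other 4 libraries, 1 per genotype at 1 week (pooled mice) and at 3 weeks (1 mouse each), are used only to show how the same genes stood at earlier ages. A gene had to reach 50 normalized counts in either of the 12-week libraries to be described, which left 10630 of the 14097 genes listed. A normalized count here is a read count divided by the size factor of its library, so levels can be compared between libraries for 1 gene but not between genes of different length. At the limit, Ifit1bl1 and AU021092 were kept with 50.1 normalized counts in the higher library, and Mmaa and Apol10a were left out with 49.7.

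Resident macrophages of the gut lie just under the epithelium, take up bacteria and dying cells, and are replaced throughout life from blood monocytes. IL10 acts on them through a receptor made of IL10Rα and IL10Rβ, the latter encoded by Il10rb, and signals through STAT3 to hold down the output of inflammatory cytokines. IL10Rβ is also a chain of the receptors for IL22 and type III interferons, and the gene was lost in the whole animal and not in macrophages alone.

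The 12-week Il10rb+/- library held 40754971 reads and the Il10rb-/- library 35266607 reads, the deepest of the series, where the other 4 held 6700337 to 19128951. The filter of 50 normalized counts stands for 106 and 78.5 reads. With no replicate library there is no test of a 12-week difference. Log2 ratios are Il10rb-/- over Il10rb+/-, and the interval beside a ratio is an exact Clopper-Pearson 95% interval of the read counts. It holds counting error alone, so it speaks of these 2 libraries and not of the genotypes. Both 12-week libraries held Xist, which is transcribed from the inactive X of females, at 4789 and 2431 normalized counts, and the labels do not state sex. Where the lower library held 0 reads, the fold was taken against 3 reads and is a lower bound.

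The targeted gene followed the labels. Il10rb (ENSMUSG00000022969, GRCm38 chr16:91406164-91425834, plus strand) had 1107 normalized counts in the 12-week Il10rb+/- and 27.4 in the Il10rb-/- library, a log2 ratio of -5.34 (interval -5.81 to -4.90), against 939 and 24.6 at 3 weeks and 1221 and 12.0 at 1 week. The partner chain Il10ra was level at 12 weeks, at 8419 and 8606 (log2 ratio 0.03). Transcripts behind the sort were present in both 12-week libraries. The log2 ratio was 0.04 for Fcgr1, which encodes CD64, 0.49 for Itgam (CD11b), 1.05 for Itgax (CD11c), 0.56 for Ptprc (CD45) and 0.30 for H2-Ab1, an MHC class II chain. Csf1r, the receptor that macrophages need to survive, had 47225 and 46878 normalized counts. Other macrophage genes were lower in the Il10rb-/- library: Adgre1, which encodes F4/80, had 16537 and 3800, and Mertk had 1116 and 532. Ly6c2, a chain of the Ly6C antigen that the gate excludes, had 143 and 2611 (log2 ratio 4.19, interval 4.02 to 4.36), although reads of the near-identical Ly6 genes may be shared.

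Of the 10630 genes, 439 (4.13%) stood more than 3-fold higher in the 12-week Il10rb-/- library and 965 (9.08%) more than 3-fold lower. Over 8-fold the counts were 111 higher and 384 lower. The median log2 ratio of all genes was 0.06 and the middle of the distribution ran from -0.48 to 0.47 (quartiles), so most genes stood close to level and 53.4% were higher. The lower genes had a median of 164 normalized counts in their higher library, against 812 for the higher genes, and 64 of the 965 had 0 reads in the Il10rb-/- library. When 50 normalized counts were asked of both libraries, 305 genes passed 3-fold upward and 308 downward. That filter also drops genes of high level by the size of their fall, Lyve1 and Fcna among them.

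**Figure D1:**
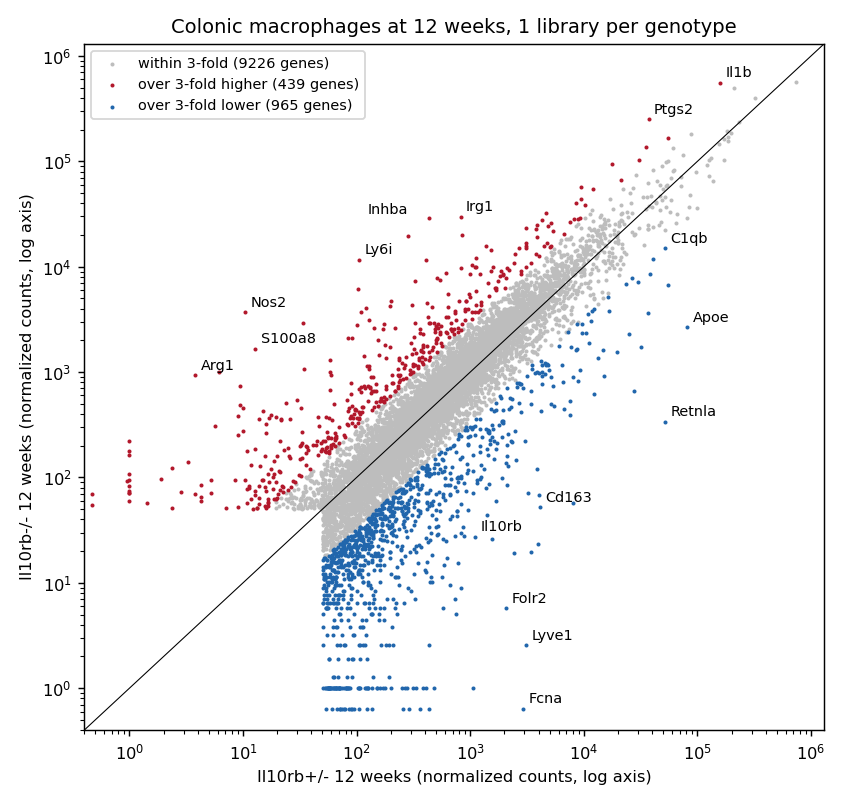
Normalized counts of each of the 10630 genes in the 12-week Il10rb+/- (x axis) and Il10rb-/- (y axis) library, both on log axes, with 0 reads shown as 1 (so a gene with 1 read lies below it). The 439 higher genes (red) reach up to Il1b, and many of the 965 lower genes (blue) lie near the filter of 50 or at 0 reads.

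Among the higher genes with at least 1000 normalized counts in a 12-week library, the 12 with the largest ratios were Nos2, S100a8, Ly6i, S100a9, Chil1, Inhba, Hp, Irg1, Hdc, Ass1, Slc7a2 and Saa3. Enzymes of nitric oxide, itaconate, arginine and histamine synthesis, an arginine importer (Slc7a2), and antimicrobial and acute-phase proteins are among their products. The rest are the chitinase-like protein of Chil1, a monocyte surface antigen (Ly6i) and the activin A subunit. The 12 log2 ratios ran from 4.83 for Saa3 to 8.48 for Nos2. By level, the leading genes over 3-fold higher were Il1b, Ptgs2, Il1rn, Thbs1 and Ccrl2, with log2 ratios of 1.80, 2.76, 1.59, 1.97 and 1.75.

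The cytokine genes were on balance higher. Of 16 proinflammatory cytokine genes past the filter, 8 were past 3-fold upward and 0 downward, with a median log2 ratio of 1.56. The same over all genes, 4.13% upward, 9.08% downward and a median of 0.06, stands beside this and each list that follows. Where a list is counted over 3-fold one way, the count given for the other way is over 3-fold too. Il1b (GRCm38 chr2:129364570-129371139, minus strand) had 159466 normalized counts in the 12-week Il10rb+/- and 556585 in the Il10rb-/- library, where the earlier libraries held 44268 to 122372. Il1a had 17825 and 95237 at 12 weeks, 2504 and 10746 at 3 weeks, and 8488 and 10108 at 1 week. Il1b and Il1a, the agonists of the IL-1 receptor, were thus highest of all 6 libraries in the 12-week Il10rb-/- library.

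The IL-12 family was uneven. Il12a, which encodes the p35 subunit specific to IL12, had 9.46 and 735 normalized counts at 12 weeks (log2 ratio 6.28), where 20 reads lie behind the lower value. Il23a, the p19 subunit specific to IL23, had 1041 and 10458 (3.33, interval 3.26 to 3.39). Il12b, the p40 subunit that both cytokines share, had 1225 and 2056, a log2 ratio of 0.75 that stayed under 3-fold, whereas at 3 weeks it had 80.3 and 885. Il6 had 1526 and 9045 at 12 weeks (log2 ratio 2.57), against 674 and 638 at 3 weeks. Tnf was lower, with 20734 and 11552 (log2 ratio -0.84, interval -0.87 to -0.82). Of the 16 genes of the proinflammatory list, 11 were higher and 5 lower, counted without a fold limit. Osm (1.31) and Il18 (1.23) were higher but under 3-fold, Lif (2.30) and Il27 (1.90) over 3-fold, and Il15 had the lowest ratio of the list, -1.53.

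Inhba (chr13:16011851-16031621), whose product dimerizes to activin A of the TGF-beta family, had 434 normalized counts in the Il10rb+/- and 29090 in the Il10rb-/- library at 12 weeks, a log2 ratio of 6.07 (interval 5.97 to 6.16). It was higher in the Il10rb-/- library at each age, with 87.6 and 1520 at 3 weeks and 119 and 593 at 1 week. Il10 itself was lower, at 10488 and 2339 normalized counts (log2 ratio -2.16, interval -2.22 to -2.11). The 12-week Il10rb+/- library stood alone here, since the other 4 libraries held 1120 to 1701. Of the 4 antagonists of IL-1 and IL-18, 3 were higher and 1 was lower (log2 ratio -0.53), and 2 were over 3-fold higher. Il1rn, the IL-1 receptor antagonist, had 55052 and 165484, Il1r2, the decoy receptor, 11247 and 31740, and Il18bp, which binds IL18, had the largest log2 ratio of the 4, at 3.21. Of 2 colony-stimulating factor genes past the filter, Csf3 was over 3-fold higher (232 and 944), and Csf2 was below the filter in both libraries (45.9 and 46.5).

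The genes that feed nitric oxide and itaconate synthesis had the highest median of the lists described, 3.79 over 11 genes, with 6 over 3-fold higher and 0 lower. Some of its members, Nos2, Slc7a2 and Arg1, passed the filter through the Il10rb-/- library alone, and over the 8 genes at 50 or more in both libraries the median was 0.83, below the 2.41 of the interferon-inducible GTPases described next. Nos2 (GRCm38 chr11:78920787-78960254, plus strand), the inducible nitric oxide synthase, had 10.4 normalized counts in the 12-week Il10rb+/- and 3705 in the Il10rb-/- library. At 3 weeks it had 12.2 and 67.7, and at 1 week 1.98 and 4.49. The 12-week log2 ratio was 8.48 (interval 7.88 to 9.15). Slc7a2, which imports arginine, had 34.5 and 1078, and Ass1, which regenerates arginine from citrulline, had 121 and 4015. Irg1 (chr14:103046977-103056573), the enzyme that makes itaconate, had 823 and 29911 (log2 ratio 5.18, interval 5.12 to 5.25). Both arginases, which compete with NOS2 for arginine, were higher as well: Arg2 had 540 and 7451, and Arg1 3.78 and 931 (log2 ratio 7.94, interval 6.96 to 9.16). Arg1 had 43.8 and 2.64 at 3 weeks, so its 3-week libraries stood the other way round at low level.

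**Figure D2:**
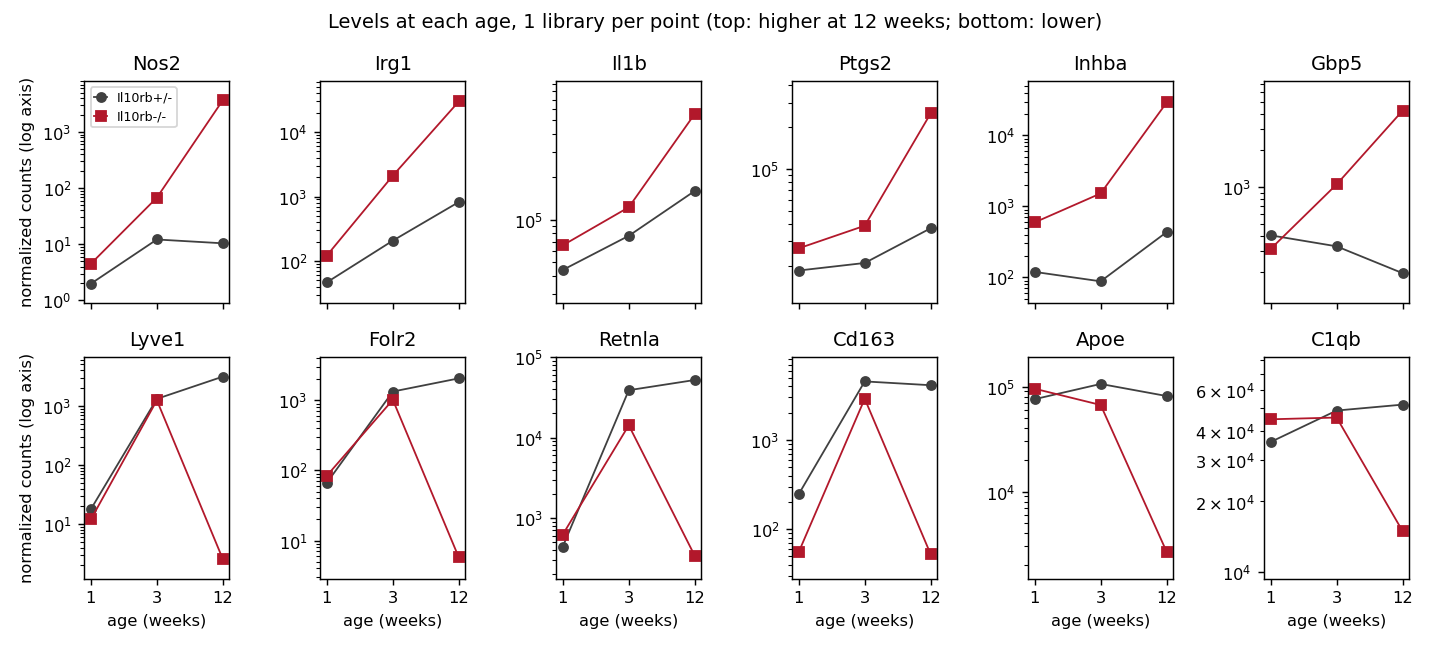
Normalized counts (log axis) at 1, 3 and 12 weeks in the Il10rb+/- (grey circles) and Il10rb-/- (red squares) libraries, 1 library per point with no error, for 6 genes higher (top) and 6 genes lower (bottom) at 12 weeks. The top genes are furthest apart at 12 weeks, and in the bottom row Lyve1, Folr2 and C1qb were close at 3 weeks and apart only at 12 weeks.

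Interferon-inducible GTPases were higher throughout. These proteins, the guanylate-binding proteins (Gbp) and the immunity-related GTPases, attack the vacuoles of intracellular microbes and are induced mainly by IFNγ. All 15 past the filter were higher in the 12-week Il10rb-/- library, 10 of them over 3-fold, with a median of 2.46 and a range of 1.11 to 4.83. RefSeq windows of the GRCm38.p6 assembly, from 250 bases before to 50 bases after the start of transcription, are printed for 4 of these genes because the family moved together. Capitals mark matches on either strand to the core of the interferon-stimulated response element (GAAANNGAA), the STAT site GAS (TTCNNNGAA), the NF-kappaB site (GGANTTTCC) and the AP-1 site (TGANTCA). The windows lie at chr3:142620413-142620712 (plus strand) for Gbp2, chr3:142496684-142496983 (plus) for Gbp5, chr11:58199306-58199605 (plus) for Igtp and chr11:48871371-48871670 (minus) for Irgm1.
Gbp2: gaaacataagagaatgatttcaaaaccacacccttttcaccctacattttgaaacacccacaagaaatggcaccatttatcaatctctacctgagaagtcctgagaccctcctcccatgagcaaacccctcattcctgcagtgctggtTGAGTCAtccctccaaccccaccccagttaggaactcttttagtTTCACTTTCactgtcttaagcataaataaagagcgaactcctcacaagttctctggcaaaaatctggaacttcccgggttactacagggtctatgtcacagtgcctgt
Gbp5: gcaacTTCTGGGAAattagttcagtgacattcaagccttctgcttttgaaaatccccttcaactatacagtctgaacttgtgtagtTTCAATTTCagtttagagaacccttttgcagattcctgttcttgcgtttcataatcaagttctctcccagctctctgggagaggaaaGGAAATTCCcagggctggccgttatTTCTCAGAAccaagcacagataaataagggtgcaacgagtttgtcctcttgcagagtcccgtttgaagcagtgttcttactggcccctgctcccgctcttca
Igtp: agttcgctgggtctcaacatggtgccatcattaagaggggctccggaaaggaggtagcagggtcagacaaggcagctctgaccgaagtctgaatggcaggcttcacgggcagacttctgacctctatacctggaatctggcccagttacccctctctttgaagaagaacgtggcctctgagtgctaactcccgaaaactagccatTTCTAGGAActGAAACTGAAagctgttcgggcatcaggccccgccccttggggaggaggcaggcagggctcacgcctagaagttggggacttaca
Irgm1: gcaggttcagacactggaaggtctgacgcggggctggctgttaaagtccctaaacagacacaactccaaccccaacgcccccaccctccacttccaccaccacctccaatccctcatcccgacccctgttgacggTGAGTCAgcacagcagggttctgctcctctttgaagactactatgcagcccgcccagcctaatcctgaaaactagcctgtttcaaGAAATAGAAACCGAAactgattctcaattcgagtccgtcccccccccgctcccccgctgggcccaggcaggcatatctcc
The response element core began 58 bases before the start in Gbp2, 164 in Gbp5 and 34 in Igtp, and Irgm1 held overlapping matches at 30 and 24 bases. GAS letters were found in Gbp5 (245 and 52 bases before the start) and Igtp (45 bases), the NF-kappaB letters in Gbp5 (77 bases), and the AP-1 letters in Gbp2 (102 bases) and Irgm1 (115 bases). Of all 27025 windows of the same length, 8.58% held the response element core, 8.42% the GAS letters, 1.23% the NF-kappaB letters and 7.92% the AP-1 letters. Windows were found for 10 of the 15 GTPase genes, too few for a share over the family, and a match is a run of letters and not a binding site.

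Gbp2 had 328 normalized counts in the 12-week Il10rb+/- and 7353 in the Il10rb-/- library (log2 ratio 4.49, interval 4.38 to 4.60), with 253 and 1474 at 3 weeks and 225 and 186 at 1 week. Gbp5 had 196 and 4243 at 12 weeks, 326 and 1052 at 3 weeks, and 402 and 310 at 1 week. Igtp had 323 and 2905 at 12 weeks, 528 and 985 at 3 weeks, and 427 and 313 at 1 week. Irgm1 had 521 and 2864, 465 and 958, and 627 and 433 at these ages. All 4 genes were higher in the Il10rb-/- library at 12 and 3 weeks and had the lower value there at 1 week, for Gbp2 within counting error (log2 ratio -0.28, interval -0.60 to 0.04). Tgtp1 (log2 ratio 4.83), Gbp6 (4.70) and Iigp1 (4.52) had the largest ratios of the family. Gbp3, Gbp7, Gbp8 and Gbp2b were higher by under 3-fold, with log2 ratios of 1.21 to 1.48. Several members are near-identical copies, such as Tgtp1 and Tgtp2, so that reads may have been split between them.

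Other genes downstream of interferon were higher to differing degrees. Batf2, an interferon-induced transcription factor, had 117 and 1424 normalized counts (log2 ratio 3.60), whereas Irf1 (0.57), Irf8 (0.72) and Stat3 (0.30) stayed within 3-fold. In all, 3 of 16 STAT and IRF family genes passed 3-fold upward and 1, Irf4 (3528 and 1168), downward. Cxcl9 (512 and 7744) and Cxcl11 (157 and 1463), ligands of CXCR3 that draw T cells, had log2 ratios of 3.92 and 3.22, while the third ligand, Cxcl10, had 10980 and 15364.

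Type I interferon response genes moved less than the GTPases, with 4 of 23 over 3-fold higher, 0 lower and a median of 0.89. Oas3 had the largest log2 ratio (2.38), Rsad2 had 1128 and 4344, and Irf7 had 616 and 2380. Oasl1 (6153 and 2063) and Ifit1 (875 and 358) were lower by under 3-fold, so the list did not run one way. MHC class I processing was higher in 20 of 20 genes, 10 of them over 3-fold, with a median of 1.51 and a range of 0.59 to 2.91. Nlrc5, the transactivator of class I genes, had 182 and 1363, and Tap1, which carries peptides into the endoplasmic reticulum, had 1601 and 9842. The immunoproteasome subunits Psmb8, Psmb9 and Psmb10 had log2 ratios of 1.65, 1.79 and 1.61, and B2m had 61291 and 133451. H2-Q7 (3118 and 23214) belongs to a family of close copies whose reads may be shared. MHC class II presentation stood apart from this, with 0 of 13 genes over 3-fold either way, a median of -0.10 and a range of -0.95 to 0.76. Cd74, its invariant chain, had 735194 and 570236 normalized counts.

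Glycolysis genes were higher in 20 of 23 cases, 12 over 3-fold and 0 lower, with a median of 1.62. The lactate exporter Slc16a3 led with 1367 and 15651 normalized counts (log2 ratio 3.52, interval 3.46 to 3.57), and the glucose transporter Slc2a1 had 3878 and 24937. Along the pathway itself, Pfkl (2.37), Aldoa (2.34), Tpi1 (2.30), Pgk1 (2.58), Pgam1 (2.09), Eno1 (1.82), Pkm (1.79) and Ldha (1.80) were all over 3-fold higher, and Gapdh had 6646 and 20476. Mitochondrial energy genes did not show such ratios. Of 33 respiratory chain genes and 18 TCA cycle genes, 0 passed 3-fold either way, and the medians were 0.53 and 0.41.

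Hypoxia response genes overlap with these in textbook accounts, because HIF-1 drives both. Of 17 past the filter, 9 were over 3-fold higher and 1 (Adm) lower, with a median of 1.74. Hif1a had 5190 and 26064 normalized counts, Vegfa, the angiogenic factor, 4665 and 32309, and Bnip3 423 and 3308. Egln3, a prolyl hydroxylase that HIF itself induces, had the largest log2 ratio of the list, 4.11. At 3 weeks Hif1a had 4081 and 6820 and Bnip3 560 and 553, so the 12-week gap in these genes was far wider than the earlier one. Under scaling by total reads the medians of the glycolysis and hypoxia lists were 1.40 and 1.52, both just under 3-fold.

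Eicosanoid genes split by pathway. Ptgs2 (GRCm38 chr1:150100031-150108227), the inducible cyclooxygenase, had 37245 normalized counts in the 12-week Il10rb+/- and 251994 in the Il10rb-/- library, where the earlier libraries held 18429 to 38822. Ptges, which turns its product into prostaglandin E2, had 58.6 and 1314 (log2 ratio 4.49). The constitutive cyclooxygenase Ptgs1 had 5462 and 481, the prostaglandin D synthase Hpgds 2094 and 84.7, and Hpgd, which degrades prostaglandins, 782 and 15.3. The leukotriene arm was also lower, with Alox5 at 1552 and 26.1 (log2 ratio -5.89, interval -6.38 to -5.45) and Ltc4s at 693 and 43.3. Counted over the list, 2 of 20 genes passed 3-fold upward and 6 downward.

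Antimicrobial and acute-phase genes were higher, 11 of 15 over 3-fold and 1 lower, with a median of 2.86. The median was 1.17 over the 8 genes at 50 or more in both libraries, 2.06 with a pseudocount of 10 and 3.47 under scaling by total reads. Saa3, serum amyloid A3, had 405 and 11531 normalized counts, Slpi, a protease inhibitor, 851 and 20013, Hp, haptoglobin, 102 and 6209, and Lcn2, which withholds iron from bacteria, 9.46 and 488. S100a8 had 12.8 and 1673 and S100a9 33.6 and 2906, where the 4 earlier libraries held at most 4.87 and 5.28. Lyz2, the macrophage lysozyme and the most abundant of the list, was level at 186648 and 169416, and Lyz1, a close copy of it, had 8685 and 1673. At 3 weeks Saa3 was lower in the Il10rb-/- library (752 and 320), as was the summed level of the list (198670 and 171917).

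Several of these genes are also neutrophil granule or surface genes, and neutrophil markers moved with them. Of 12 neutrophil markers past the filter, 9 were over 3-fold higher and 0 lower, and the summed level of the 15 in the table was 23744 normalized counts in the 12-week Il10rb+/- and 95873 in the Il10rb-/- library, against 10660 to 25768 in the other 4. Most of this sum came from Mxd1 and Il1r2, which macrophages also transcribe. The median of the neutrophil list was 3.07, and 2.22 over the 7 genes at 50 or more in both libraries. The granule gene Ngp had 0 reads in every library but the 12-week Il10rb-/- one, where it had 180 normalized counts, at least 127-fold higher. The defining gene Ly6g had 0 and 15.9, Camp 0 and 14.6, and Mpo 11.3 and 15.9. The part of neutrophil RNA in the antimicrobial list was not tested.

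Monocyte genes were higher in the same library, 13 of 21 over 3-fold and 1 lower, with a median of 2.06. Ly6i had 105 and 11671 normalized counts (log2 ratio 6.79, interval 6.60 to 6.99), Plac8 1515 and 14515, F10, coagulation factor X, 999 and 8544, and Thbs1, thrombospondin 1, 35157 and 137739. Ccr2, the receptor that brings monocytes into tissue, was close to level at 11505 and 13312. Ly6c1, which endothelial cells also express, was the one gene over 3-fold lower, at 585 and 116. The Ly6 genes are close copies of each other.

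The larger lower set was led by genes of resident gut macrophages. The 12 lowest ratios, among genes with at least 1000 normalized counts in the higher library, were those of Fcna, Lyve1, Siglech, Folr2, Fcrls, Slco2b1, Retnla, Pf4, Cbr2, Cd163, Pmp22 and Alox5. Of 32 resident macrophage genes, all past the filter, 19 (59.4%, beside 9.08% of all genes) were over 3-fold lower and 0 higher, with a median of -2.14. In the same list the 4 genes that were higher stayed within 3-fold.

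Lyve1 (GRCm38 chr7:110850607-110863239, minus strand), a hyaluronan receptor of perivascular macrophages, had 3120 normalized counts in the 12-week Il10rb+/- and 2.55 in the Il10rb-/- library (log2 ratio -10.26, interval -12.13 to -8.90). At 3 weeks it had 1312 and 1241, and at 1 week 17.8 and 12.0. Fcna (chr2:25624666-25628030), a ficolin, had 2928 and 1 read worth 0.637, and its log2 ratio was -12.17 (interval -17.47 to -9.69). Folr2, the folate receptor of the same macrophages, had 2057 and 5.73 at 12 weeks, against 1334 and 1017 at 3 weeks. The pattern of these genes was thus a near absence of reads in the 12-week Il10rb-/- library and close levels in the 3-week pair. Cd163 (chr6:124304656-124330527), the haptoglobin-hemoglobin scavenger receptor, had 4112 and 52.2 (log2 ratio -6.30, interval -6.63 to -5.99), and at 3 weeks 4536 and 2901. Cd209f had 407 and 0 reads, at least 213-fold lower.

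Among the most abundant genes that were lower, Apoe (chr7:19696109-19699188), a lipid carrier, had 81265 and 2663 normalized counts (log2 ratio -4.93), where the 4 earlier libraries held 66793 to 105967. Sepp1, selenoprotein P, had 54672 and 6666, and C1qb, a chain of the complement initiator C1q, 51831 and 14925. Cx3cr1, the fractalkine receptor by which gut macrophages are commonly marked, had 8074 and 906 (log2 ratio -3.16, interval -3.23 to -3.08), and Mrc1, the mannose receptor, 12185 and 618. All 5 kept at least 618 normalized counts in the Il10rb-/- library, where Lyve1 and Fcna held almost no reads. Cd4 and Cd81, which long-lived gut macrophages carry, had log2 ratios of -3.03 and -3.64.

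Siglech, Ppbp and Pdgfc had 0 reads in the 12-week Il10rb-/- library. Siglech, a lectin of plasmacytoid dendritic cells and some macrophages, had 1055 normalized counts in the Il10rb+/- library and was at least 552-fold lower, and at 3 weeks it had 1686 and 583. Ppbp, a platelet chemokine, had 178 and was at least 93.1-fold lower. Pdgfc, a growth factor for fibroblasts, had 251 and was at least 131-fold lower, with 139 and 179 at 3 weeks.

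**Figure D3:**
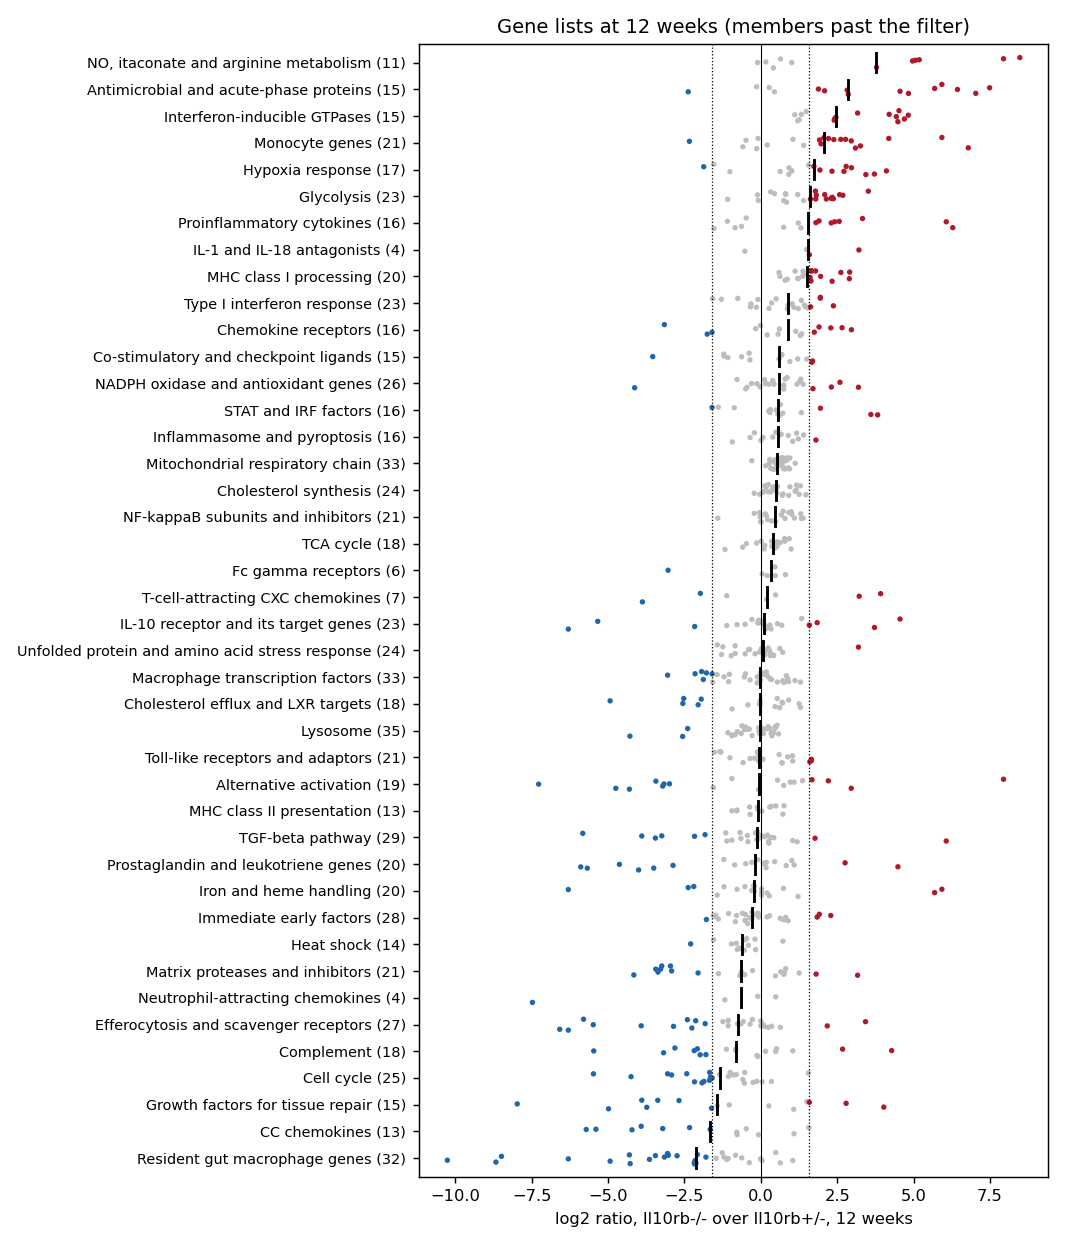
Log2 ratio of the 12-week Il10rb-/- over the Il10rb+/- library for each gene past the filter (points), by gene list. The lists are sorted by the median (black bar), with dotted lines at 3-fold and the number of genes in brackets. The 9 lists of other cell types and the colony-stimulating factor list are left out. Among the lists shown, the nitric oxide and itaconate list has the highest median, 3.79, and the resident macrophage list the lowest, -2.14.

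Receptors and bridging proteins for the uptake of dying cells were mostly lower, 10 of 27 over 3-fold and 2 higher, with a median of -0.76. Gas6, which bridges phosphatidylserine to the receptors AXL and MERTK, had 3220 and 72.0 normalized counts, Cd36 6752 and 448, and Stab1 5303 and 732. Axl (15614 and 7451) and Mertk were lower by under 3-fold. Marco, a scavenger receptor, had 55.8 and 0 reads at 12 weeks, at least 29.2-fold lower, but 26.8 and 134 at 3 weeks. Clec7a, the beta-glucan receptor Dectin-1, ran against the list with 12068 and 54478, as did Cd300lf (420 and 4513).

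Complement genes were lower in 7 of 18 cases over 3-fold and higher in 2, with a median of -0.83 (-0.48 over the 14 genes at 50 or more in both libraries). All 3 C1q chains were lower, with log2 ratios of -2.08 (C1qa), -1.80 (C1qb) and -2.18 (C1qc), as were the regulator Cd55 (226 and 5.09) and the receptor C3ar1 (14870 and 1638). The central component C3 (4310 and 27522) and factor B of the alternative pathway, Cfb (19.4 and 377), were higher. Of 6 Fc gamma receptor genes, 1 passed 3-fold: Fcgrt, the neonatal Fc receptor, had 6610 and 807.

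Chemokines that attract monocytes and eosinophils were lower in the Il10rb-/- library. Of 13 CC chemokine genes, 7 were over 3-fold lower and 0 higher, with a median of -1.66 that moved to -1.22 when 50 normalized counts were asked of both libraries and to -0.79 with a filter of 1 read in either. Ccl7 had 27828 and 660 normalized counts (log2 ratio -5.40, interval -5.49 to -5.31), Ccl2 31968 and 1720, Ccl12 2085 and 138, and Ccl24 1055 and 114. Ccl2 and Ccl7 at 3 weeks stood at 31419 and 17455, and at 23751 and 10882. Ccl5, a T-cell chemokine, was the gene with the highest ratio, at 725 and 2154, and Ccl4, the most abundant, had 40803 and 23828. Of the neutrophil chemokines, Cxcl2 was close to level (172948 and 161308), Cxcl1 had 83965 and 37130, and 1 of 4 (Ppbp) was over 3-fold lower. Cxcl12, a stromal chemokine, had 495 and 33.7, and the 7 T-cell-attracting CXC genes counted 2 over 3-fold each way.

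Chemokine and growth factor receptors were higher in 5 of 16 cases over 3-fold and lower in 3, with a median of 0.88. Ccrl2, a receptor that holds chemerin at the surface, had 30418 and 102380 normalized counts, Ccr7, which leads cells to lymph nodes, 10331 and 38707, and Csf3r, the G-CSF receptor, 1420 and 6944. Cx3cr1 was the lowest of the list.

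Genes of alternative activation, the program that IL4 induces, went both ways, 7 of 19 passing 3-fold downward and 4 upward. Retnla (GRCm38 chr16:48842551-48844461, plus strand), which encodes RELMα, had 52045 and 337 normalized counts at 12 weeks, a log2 ratio of -7.27 (interval -7.40 to -7.15). It had 38836 and 14214 at 3 weeks and 438 and 620 at 1 week, so the 12-week Il10rb-/- library stood near the level of the 1-week libraries. Mgl2 had 8826 and 816, and F13a1, a factor XIII chain, 9349 and 1039. Higher members were Arg1 (above), Tgm2 (9468 and 43773), Chil3 (63.4 and 493) and Pdcd1lg2 (59.1 and 188). The median of the list was -0.08.

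Genes of tissue repair and of the matrix were mostly lower. Among 15 growth factor genes, 7 were over 3-fold lower and 3 higher, with a median of -1.43. Igf1 had 1391 and 43.9 normalized counts (log2 ratio -4.98, interval -5.35 to -4.64), Pdgfb 2115 and 159, Pdgfa 765 and 73.9, and Bmp2 1062 and 71.3. Nrg1 (174 and 2839), Vegfa and Il1rn were over 3-fold higher. Matrix proteases and their inhibitors counted 8 of 21 over 3-fold lower, among them Mmp13 (25003 and 2308) and Timp2 (5118 and 497), and 2 higher, Mmp8 (128 and 1151) and Mmp25 (149 and 523). In the TGF-beta pathway, 6 of 29 genes were over 3-fold lower and 2, Inhba and Smad6, over 3-fold higher. Tgfb2 had 56.7 and 0 reads, at least 29.7-fold lower, and Pmepa1, a standard target of the pathway, had 1628 and 149.

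Cell cycle genes were lower in 22 of 25 cases, 12 over 3-fold, with a median of -1.35. Over the 15 genes at 50 or more in both libraries the median was -0.59. Tpx2, a spindle factor, had 113 and 2.55 normalized counts, Birc5, survivin, 145 and 19.1, and Top2a, the replication topoisomerase, 376 and 125. Bub1b went the other way (158 and 464). These genes were close in the 3-week pair, at 691 and 901 for Top2a and 217 and 232 for Birc5, and all of these levels were below those of the 1-week libraries, where Top2a had 1338 and 1107.

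Transcription factors of macrophages were lower in 6 of 33 cases over 3-fold and higher in 0, with a median of -0.01. Maf, which maintains resident macrophages, had 2132 and 257 normalized counts, Mef2c 3843 and 1003, Cebpa 2814 and 763, Hes1, a Notch target, 7730 and 1740, and Klf2 40356 and 11747. Spi1, the master factor PU.1, was within 3-fold (9412 and 12025), as were Zeb2 (7950 and 8550) and Ahr (9404 and 9322), and Cebpb had 48356 and 90806.

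Genes of lipid and iron handling were mostly within 3-fold. Of 18 cholesterol efflux genes, 5 (27.8%, beside 9.08% of all genes) were over 3-fold lower, among them Apoe, Pltp (11154 and 1902) and Lpl (1919 and 334), and of 24 cholesterol synthesis genes 0 passed 3-fold. Iron and heme genes counted 2 of 20 over 3-fold higher, Hp and Lcn2, and 3 lower, Cd163, Cp and the iron exporter Slc40a1 (358 and 78.3). The ferritin chain Fth1, the most abundant, had 211709 and 492236. Of 35 lysosome genes 3 (8.57%, close to the share of all genes) were over 3-fold lower, Ctsf (955 and 49.0), Atp6v0d2 and Cd63, and 0 over 3-fold higher. Among 26 NADPH oxidase and antioxidant genes, 4 were over 3-fold higher, namely Slc7a11, the cystine importer (1093 and 10009), Prdx5, Sod2 and Prdx6. Gpx3 was the one gene of that list over 3-fold lower (424 and 24.2).

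Lists of the IL10 pathway and of microbial sensing had medians of -0.06 to 0.56, with members past 3-fold in most of them. Of 23 IL10 receptor and target genes, 4 (17.4%) were over 3-fold higher and 3 lower, beside 4.13% and 9.08% of all genes, the latter 3 being Il10rb, Il10 and Cd163. Socs3, a direct STAT3 target, had 46948 and 59079 normalized counts, and Nfil3 had 4724 and 16964. Of 21 NF-kappaB subunits and inhibitors, 0 passed 3-fold, and Nfkbia was level at 72195 and 70961. Of 21 genes of Toll-like receptors and their adaptors 3 (14.3%) were over 3-fold higher, Tlr2 (9169 and 28876), Tlr6 and Irak3, and of 16 inflammasome genes 1, Il1b, was. Co-stimulatory and checkpoint ligands counted 2 of 15 over 3-fold higher, Cd274 (8820 and 28512), which encodes PD-L1, and Pdcd1lg2, and 1 over 3-fold lower, Cd276 (244 and 21.0).

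Genes of stress and of tissue handling were mostly within 3-fold. Heat shock genes were lower in 13 of 14 cases, 1 (Hspb1, 2288 and 465) over 3-fold, with a median of -0.61, and both 12-week libraries stood above the earlier ones for Hspa1b (169739 and 103410, against 41211 to 100647). Immediate early genes, which dissociation of tissue can induce, counted 3 of 28 (10.7%) over 3-fold higher, Nr4a2, Nr4a3 and Fosl1. Of the same list 1, Klf2, was over 3-fold lower, and Fos stood at 184354 and 157398. Of 24 genes of the unfolded protein and amino acid stress response, 1, Slc7a11, passed 3-fold.

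Markers of cells other than macrophages differed between the 12-week libraries, in both directions. In bulk RNA, fewer cells of a type and less RNA per cell cannot be told apart. Of 12 fibroblast and smooth muscle markers, 11 were over 3-fold lower and 0 higher, with a summed level of 5236 normalized counts in the Il10rb+/- and 634 in the Il10rb-/- library (455 to 3554 in the earlier libraries). Their median log2 ratio was -3.41, and -2.41 over the 4 at 50 or more in both 12-week libraries. Postn had 432 and 1 read worth 0.637 (log2 ratio -9.40, interval -14.71 to -6.92), Col3a1 1678 and 59.2, and Myh11 82.3 and 0 reads. Of 11 endothelial markers 9 were over 3-fold lower and 0 higher, with sums of 4725 and 1426 (523 to 1132 earlier) led by Plvap (1957 and 345). The endothelial median was -2.19, and -1.86 over the 5 at 50 or more in both 12-week libraries. The 12-week Il10rb+/- library thus held the highest sum of both lists, and genes of matrix, growth factors and Cxcl12 that stromal cells also express moved with them. The part of these cells in those differences was not tested.

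B and plasma cell markers were lower in 9 of 12 cases over 3-fold, with sums of 20225 and 7930 (1658 to 4090 earlier). Jchain, the joining chain of secreted IgA, had 13324 and 1359 normalized counts, and Cd79a 1483 and 208. Sdc1, which macrophages can also express, was the gene that ran higher (634 and 5560). Of 5 eosinophil markers past the filter all were over 3-fold lower, with sums of 1960 and 196 (269 to 2660 earlier), led by Rnase2a (834 and 8.91), whose reads may be shared with its close copy Ear2, and the table has no row for Epx or Prg3. Only 1 of the 5 stood at 50 or more in both libraries. The eosinophil median was -2.87, and -2.12 over 8 genes with a filter of 1 read in either library. Dendritic cell markers summed to 14392 and 44192 (5047 to 11077 earlier), most of it Ccr7, with 3 of 13 over 3-fold higher and 1, Siglech, over 3-fold lower. The gated-out integrin Itgae (CD103) stood at 4.73 and 33.7, below the filter.

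T cell markers summed to 3356 and 2729 (527 to 1351 earlier), with 4 of 11 over 3-fold higher and 1, Cd2, lower, and Cd3e had 39.7 and 93.0. The T cell median was 1.23, but 0.02 over the 6 genes at 50 or more in both libraries. Epithelial markers summed to 1302 and 2788 (195 to 1969 earlier), with 4 of 13 over 3-fold higher, among them Epcam (96.4 and 441), and 1, Car1, over 3-fold lower. For mast cells and basophils only Kit (490 and 2554) and Hdc (110 and 3749) passed the filter, both over 3-fold higher, and 9 of the 12 markers have no row in the table. With all genes of these 9 lists left out, 416 higher and 928 lower genes remained past 3-fold. The lists held at most 13 genes each past the filter, so leaving them out could move the counts only a little. Other transcripts of such cells stay in these counts.

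**Figure D4:**
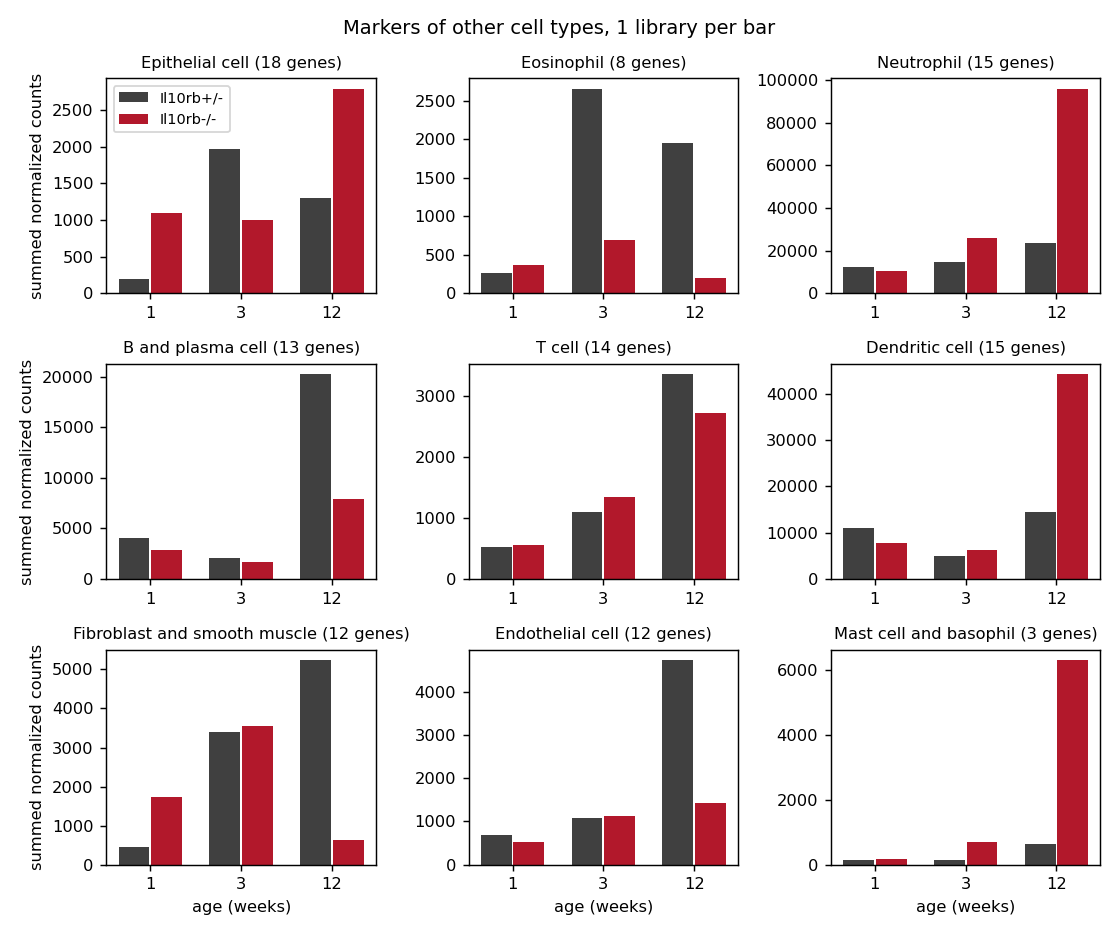
Summed normalized counts of the markers of 9 other cell types (number of genes in brackets) at 1, 3 and 12 weeks, 1 library per bar with no error, grey for Il10rb+/- and red for Il10rb-/-. At 12 weeks the Il10rb+/- library has the larger sum for fibroblast, endothelial, B and plasma cell, T cell and eosinophil markers. The Il10rb-/- library has the larger sum for neutrophil, dendritic cell, epithelial, and mast cell and basophil markers.

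The genes of both sets were followed back to the earlier ages. At 3 weeks, the Il10rb-/- library had 143 of the 10630 genes (1.35%) more than 3-fold higher and 55 (0.517%) more than 3-fold lower. From the higher set of 439, 87 (19.8%) were so already at 3 weeks, which is 60.8% of the 143, and 342 (77.9%) had the same direction, where 52.5% of all genes were higher. From the lower set of 965, 30 (3.11%) had passed 3-fold downward by 3 weeks, 54.5% of the 55, and 658 (68.2%) had the same direction, where 47.3% of all genes were lower. At that age 10 of the higher and 24 of the lower genes were over 3-fold the other way. The median 3-week log2 ratio was 0.61 for the higher and -0.25 for the lower set, and the 3-week Il10rb+/- library was the shallowest of the series. At 1 week, 299 (68.1%) of the higher and 490 (50.8%) of the lower genes had the same direction, where 46.2% and 53.5% of all genes did. Of the higher genes, 76 were over 3-fold the same way at 1 week and 13 the other way. Of the lower genes, 22 were over 3-fold the same way and 139 the other way. No minimum level was asked of the 1-week libraries here. The share of all genes past 3-fold at 1 week was not counted, so these numbers are not read as a reversal.

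**Figure D5:**
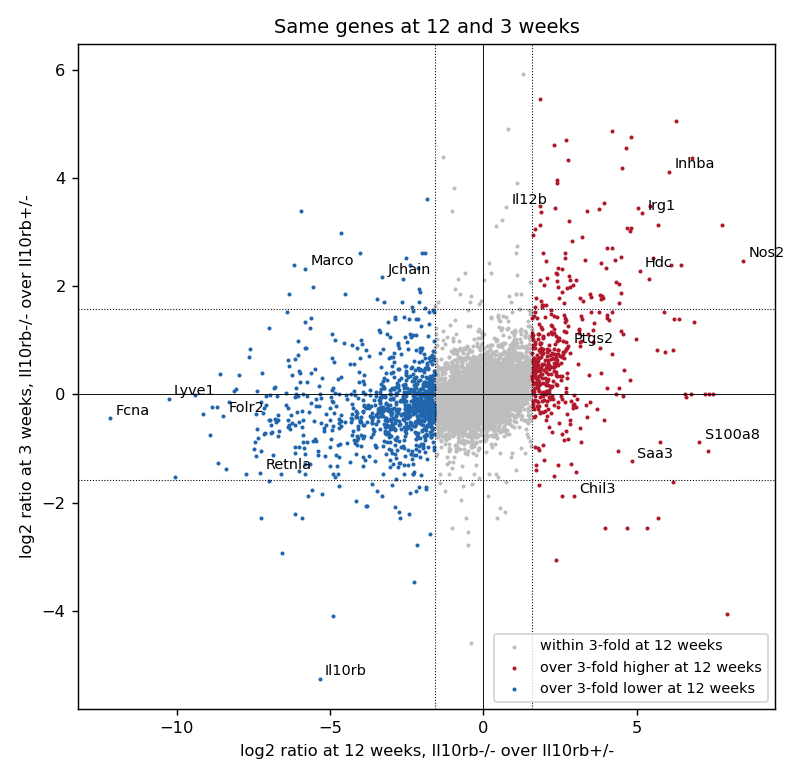
Log2 ratio of the Il10rb-/- over the Il10rb+/- library at 12 weeks (x axis) and 3 weeks (y axis) for the 10630 genes, with 0 reads shown as 1 and dotted lines at 3-fold. The genes higher at 12 weeks (red) lie mostly above 0 at 3 weeks (median 0.61), while those lower at 12 weeks (blue) spread around a median of -0.25.

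The 3 ages were also set together, as the only comparison with more than 1 library per genotype. In limma on log2 of the normalized count plus 1, with age as a term, 0 of 11067 genes (0%) passed an adjusted p of 0.05, and 853 had an unadjusted p under 0.05, 487 higher and 366 lower. This fit holds the 12-week libraries and tests the genotype difference averaged over the ages, with its variation between ages as the error. It cannot test 12 weeks alone. The smallest Benjamini-Hochberg adjusted p, 0.0616, was that of Il10rb (log2 difference -5.68, SE 0.34). Next among the named genes came Il23a, higher in 3 of 3 ages by 2.53 (SE 0.31, limma adjusted p 0.372), Il1rn by 1.44 (SE 0.23, 0.515) and Inhba by 4.16 (SE 0.67, 0.519). Nos2 had a mean log2 difference of 3.87 (SE 1.46) and Lyve1 of -3.47 (SE 1.91), and for both the gap was widest at 12 weeks. Of the 439 genes, 436 had the same sign in the fit and 175 an unadjusted p under 0.05, and of the 965 genes 920 and 126 did. Both sets were chosen by 12-week ratios that are part of this fit. Their signs in it were thus largely set in advance and are no separate support.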

How the data were processed

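RNA-seq was performed by the authors on P3/P4 MΦs sorted from the colonic lamina propria, 1 library per genotype and age. Reads were aligned to mm10 with TopHat at default settings and counted on genes with htseq, and the submitters' processing notes also name Trim Galore. The authors divided the counts by DESeq size factors and deposited the result, a normalized signal per gene and library in which 0 is shown as 1. Versions, annotation and strand setting are not given in the sources used here, so overlapping genes and close copies are uncertain. The labels name a SMART-Seq kit and the study's methods oligo dT beads. No per-sample column was left unused (0).

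Apart from 1, all values were whole multiples of a step fixed for each library (0.473 normalized counts in the 12-week Il10rb+/- and 0.637 in the Il10rb-/- library), from which reads were read back. Because zeros had been replaced, edgeR and DESeq2, which the planned design named for the case of counts, were not run. Log2 ratios used the values as deposited, 0 as 1, a filter of 50 and a limit of 3-fold. Counting intervals are Clopper-Pearson, at 95%. Genotype over all ages was fitted with limma 3.58.1 (R 4.3.3), on values with 1 added and log2 taken, at genes reaching 50 in any library. Other steps used Python 3.11.15, scipy 1.17.1, pandas 2.3.3, numpy 2.4.6 and matplotlib 3.10.9, and were tested on simulated data. Coordinates are from GENCODE on GRCm38 (mm10), where 14085 of 14097 genes were found, and promoter windows from RefSeq (8563 of 10630 genes matched).

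The comparison, the 52 gene lists and the alternatives were chosen with earlier results of these data known. Named genes are those the study's RNA-seq results name, the receptor genes Il10rb and Il10ra with Il10, Il6 and Tnf, the 12 largest ratios each way at 1000 or more normalized counts (with the lower library set to at least 3 reads), the 5 most abundant genes over 3-fold each way, and for each list its extremes and most abundant members. Other members of a list were chosen after their values were seen. Lists are described by counts and medians, with no test, and the same over all genes is given where the lists begin. Replicate numbers pair nothing, as each group is 1 library.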

Additional observations from a re-analysis of the deposited data

Results flagged for a closer look

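Some genes named above or held in the lists were over 3-fold apart in opposite directions at 12 weeks and at an earlier age. Each value compares 1 library with 1 library, so the difference between ages was not tested, and the cause was not tested. Groups of 1 library allow no check for a sample far from the others. Log2 ratios are Il10rb-/- over Il10rb+/- with 0 reads shown as 1, so they are no bound where a library had 0 reads, as for Cd209f and Marco at 12 weeks.

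Only genes that reached 50 normalized counts at both ages are described, apart from Arg1. Against the 3-week pair, 3 such genes stood the other way. Chil3, a chitinase-like protein, had a log2 ratio of 2.96 at 12 weeks and -1.88 at 3 weeks. Jchain had -3.29 at 12 weeks and 2.17 at 3 weeks, and the scavenger receptor Marco had -5.80 and 2.32. Below that level at 3 weeks stood 4 more genes, of which Arg1, at 43.8 and 2.64 normalized counts, had 7.94 at 12 weeks and -4.05 at 3 weeks.

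Against the 1-week pair, whose libraries were pooled from several mice, 12 genes did, and 16 more below that level. Fibroblast and smooth muscle genes were the largest group, with Col1a2 at -4.06 (12 weeks) and 3.45 (1 week), Dcn at -2.93 and 3.13, Col3a1 at -4.83 and 2.79, Col1a1 at -3.36 and 2.53, and Acta2 at -3.90 and 1.85. The summed level of these markers was 455 normalized counts in the 1-week Il10rb+/- and 1739 in the 1-week Il10rb-/- library. Among the macrophage genes, Cd209f had -8.67 and 2.52, Lpl -2.52 and 2.16, Adamdec1 -4.16 and 1.64, and Lyz1 -2.38 and 2.35. Ear2, of the eosinophil list, had -2.99 and 2.81. The interferon genes Gbp4 and Rsad2 ran in the reverse order, Gbp4 at 2.40 and -1.69 and Rsad2 at 1.95 and -1.81.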

How the results depend on the processing

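The numbers of genes over 3-fold higher and lower (439 and 965) moved by less than 1.5 times under TMM scaling (418 and 997), scaling by total reads (339 and 1191), size factors of the 2 libraries (438 and 966), a filter over any of the 6 libraries (446 and 1106), a pseudocount of 10 (395 and 829), equal read numbers (439 and 966), the whole interval beyond 3-fold (357 and 741) and, chosen after seeing the data, without the markers of other cell types (416 and 928). They moved further with a filter of 50 in both libraries (305 higher, 308 lower), with a filter of 1 read in either (780 and 2167) and with a 2-fold limit (939 and 1555). Leaving out the markers of other cell types could move the counts only a little, because those lists hold few genes. Scaling by total reads moved the median log2 ratio of all genes from 0.06 to -0.17 and changed the sign of 3 list medians, none over 0.19 in size (T-cell-attracting CXC chemokines, IL10 receptor and targets, unfolded protein response). The filter of 50 in both changed 2 (Toll-like receptors, prostaglandins) and brought the medians of nitric oxide and itaconate genes to 0.83, of antimicrobial genes to 1.17, of cell cycle genes to -0.59, of CC chemokines to -1.22 and of T cell markers to 0.02. Of 322 values of the 42 genes named by rule, 2 changed sign, both of Il10ra, which was level (0.03, and -0.01 under TMM scaling and -0.19 under total reads). The limma fit over ages called 0 genes, also under TMM scaling and with a filter of 1 read (853, 839 and 978 at an unadjusted p under 0.05). It called 1 with a pseudocount of 10, 27 without the 1-week libraries, 3 without the 3-week libraries and 246 without the 12-week libraries. The fits without an age had too few libraries for a sound estimate of error, so their counts are not read as genotype effects. No paired analysis was possible because each genotype and age has 1 library, and no library could be left out at 12 weeks. Depth limits the lower genes: 64 had 0 reads in the Il10rb-/- library.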
